A study of Mus musculus with 12 samples.

Results

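ABC transporter genes were followed in a map of contacts between active chromatin regions in young and old mouse hepatocytes. The set holds every gene named Abca to Abcg with a number in the deposited gene columns, apart from Abcb11, Abcb4, Abcc2 and Abcc3, the genes of bile salt, phospholipid and conjugate export. These are 23 of the 9595 protein-coding genes listed at either age, and 23 of the 46 family genes that the RefSeq table names once the 4 bile exporters are left out. The listed share of the family was 50.0%, compared with 43.8% of all 21887 protein-coding genes.

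The assay was H3K27ac Hi-ChIP, which joins DNA ends that lie close together in the nucleus and then pulls down chromatin carrying H3K27ac, a mark of active promoters and enhancers. Hepatocytes came from male C57BL/6 mice of 5 months (young) or 25 months (old). Each age had 6 libraries, from 2 biological replicates in 3 batches. Mice of the young group were bought from a commercial breeder and those of the old group came from the stock of the US National Institute on Aging, so age and source cannot be told apart. Digested livers were filtered and hepatocytes were pelleted at low speed. The authors deposited 1 network per age, built of 5 kb bins called nodes that are grouped into sets called cliques, and each node lies in 1 clique. With 1 network per age there is no replicate check and no p-value, and every value below describes these networks. The old network was the smaller, with 40304 nodes against 56928, and its cliques had 6.75 nodes on average against 10.5. The cells were pooled, so fewer cells with a contact and a weaker contact in each cell cannot be told apart. Cliques of young listed 7 of 9 hepatocyte marker genes and cliques of old listed 6, Alb, Apoa1 and Ttr among them at both ages. The hepatocyte marker listed in young only was Hnf4a, in a clique of 65 nodes. For comparison, of all protein-coding genes listed at either age 90.6% were listed in young and 74.6% in old. The listed markers of other liver cells went from 3 of 6 in young to 1 of 6 in old for endothelial cells, from 1 of 6 to 0 for stellate cells and from 1 of 5 to 0 for cholangiocytes, and none of 6 macrophage or 5 lymphocyte markers was listed at either age. Their part in the results below was not tested.

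ABC transporters use ATP bound at paired cytosolic domains to move substrates across membranes, and most of them export. The Abca and Abcg families carry mainly lipids and sterols, many Abcb and Abcc proteins carry drugs and conjugates, and most Abcd proteins bring fatty acids into peroxisomes. Proteins of the Abcf branch share the ATP-binding domains but have no membrane part and act in translation. In the liver these proteins load cholesterol onto lipoproteins, secrete sterols into bile and supply peroxisomal oxidation.

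The value of a gene is the number of nodes in the clique that lists it, and each listed member was in 1 clique of an age. For the most part a gene was listed where its start lay in a node. Over 14731 protein-coding genes with 1 start in the RefSeq promoter table, 94.5% of the genes listed in young and 92.2% of those listed in old had the start in a node, while 3.36% and 3.44% of genes with a start outside every node were listed. A member listed at 1 age only is therefore mostly a gene whose start bin was a node at that age only.

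Most members were in smaller cliques in old than in young. The old clique was the smaller for 19 of 23 members, where 78.5% of all protein-coding genes had the smaller value, and the larger for 4, where the share of all genes was 17.9%. The shares of members, 82.6% and 17.4%, are close to those. No member was in cliques of equal size, against 3.61% of all genes. As many as 14 members, or 60.9%, were at least 2-fold lower on the log2((old + 1)/(young + 1)) scale, against 48.7% of all genes, and 3 were at least 2-fold higher, against 11.9%. Median sizes were 35 nodes (young) and 7 nodes (old), with a median log2 value of -1.31, while all protein-coding genes had medians of 22 and 6 nodes and a log2 value of -0.93. Among genes listed at both ages the medians of the 13 members were 39 and 16 nodes with a log2 value of -0.71, and those of all 6257 such genes were 30 and 16 with -0.63. Of these 13 members, 11 were smaller and 2 larger in old, against 81.5% and 13% of all such genes, with none equal against 5.53%. A difference of at least 2-fold was seen downward in 6 of the 13, against 35.7%, and upward in 1, against 3.77%. When each size was taken relative to its network's mean clique before 1 was added, 16 of 23 members were smaller and 7 larger in old, against 58.6% and 41.4% of all genes. The median of all genes then moved from -0.93 to -0.22 and that of the members to -0.36. Abca7, Abcb6 and Abcf3 are the members that turn to the larger side in old under that scaling. By the rank of the clique size within its network, 15 of 23 members were smaller and 8 larger, against 53.5% and 46.5% of all genes, with Abcc6 added to those 3.

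**Figure D1:**
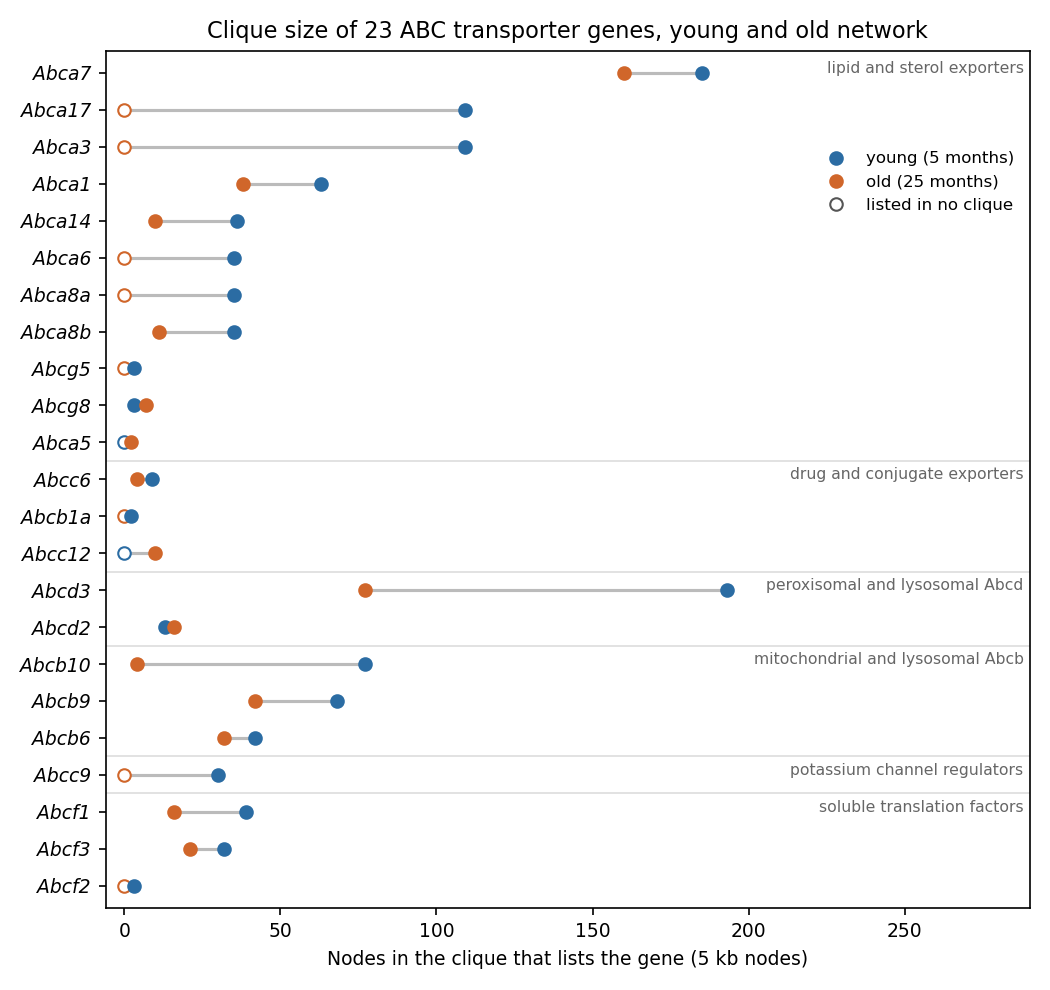
Each row is a member gene, grouped by role, and the horizontal axis gives the number of 5 kb nodes in the clique that lists it, with blue for the young and orange for the old network and an open circle at 0 where no clique of that age lists the gene. Abcd3 and Abca7 stand at 193 and 185 nodes in young, and 8 members have an open circle in old against 2 in young.

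Cliques of young listed 21 members (91.3%), against 90.6% of all protein-coding genes, and cliques of old listed 15 (65.2%), against 74.6%. Large cliques, of 50 or more nodes, held 7 members in young (30.4%, against 23.4%) and 2 in old (8.7%, against 8.1%), Abca7 and Abcd3. Both ages listed 13 members (56.5%), against 65.2%.

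Of the 23 members 8 (34.8%) were listed in young only, compared with 25.4% of all protein-coding genes, and 2 were listed in old only, compared with 9.43%. Of those 8 members, 6 (75.0%) still had an old node in the gene or within 2500 bp of it. The share was 49.1% for all 2433 genes listed in young only, and the genes were not matched for length. The start itself was in a node in young for 17 of the 20 members with a start in the promoter table and in old for 12. Of the 17, 11 had it in a node in old too, or 64.7% (95% Wilson interval 41.3 to 82.7, counting error only), and the share was 71.5% over the 6681 listed genes with a start in a young node. The start was in a node in young and not in old for 6 of the 20 members. This held for 24.7% of the 7690 protein-coding genes that were listed at either age and had a start in the table. Abcg8 is not among the 6, because the upstream one of its 2 starts lay in a node at both ages.

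The lipid and sterol exporters were the largest group, with 11 members. Of these, 10 were listed in young and 6 in old. The old clique was the smaller for 9 and the larger for 2, Abca5 and Abcg8, and the group medians were 35 and 2 nodes. Abca7 joined the larger side when sizes were relative to the mean. Abca1 loads cholesterol and phospholipid onto apolipoprotein A-I, the first step in the making of high-density lipoprotein. Its gene, on chromosome 4 from 53030789 to 53159988 (GRCm38), was in a 63-node clique in young and a 38-node clique in old. In young, Abcb6 alone of the members was more densely covered, and in old Abcb6, Abcc6, Abcf1, Abcb9 and Abcd3 were. Of the 28 bins that touch Abca1 or lie within 2500 bp of it, 24 were nodes in young and 19 in old, and all 19 were shared. An unbroken run of nodes over the start was 100 kb long in young and 55 kb in old. In young the clique also listed Slc44a1, a choline transporter gene 280399 bp away, which was in an old clique of 3 nodes. The old clique listed Nipsnap3b, which no young clique listed. Of the 63 young nodes 40 were present in old (63.5%, 51.1 to 74.3), 32 of them in the old Abca1 clique.

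Abca7, a phospholipid transporter with roles in phagocytosis, was in the second largest member clique of young and the largest of old, with 185 and 160 nodes on chromosome 10. The 2 cliques shared 120 nodes, a Jaccard index of 0.533, and 47 of the 66 protein-coding genes listed beside Abca7 in young were beside it in old as well. Its nearest neighbours Cnn2 and Wdr18 were at 185 and 160 nodes too, while Gpx4, whose enzyme reduces lipid peroxides, was in the young clique and in no old clique. Near the gene the order was the reverse of the clique sizes. Within 200 kb of the start, 52 of 81 bins were nodes in young and 57 in old, and 2 and 4 of the 6 bins at the gene itself were nodes. Relative to the mean clique of each network, Abca7 was at 17.6 times the mean in young and 23.7 times in old.

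Abca3, which moves phospholipid into the lamellar bodies of lung cells that make surfactant, and Abca17, a gene of the same branch, lie head to head on chromosome 17. Their starts are 964 bp apart on opposite strands and in the same bin. A 109-node clique of young listed both, and no clique of old listed either. Much of that clique was still present in old. Of its nodes 80 were present in old (73.4%, 64.4 to 80.8), in 8 cliques with at most 51 nodes, and 39 of the 49 other protein-coding genes it listed were listed in old. The bin with both starts was absent from the old network, and the nearest old node was 7978 bp from the Abca3 start. At Abca3, 9 of 14 bins were nodes in young and 3 in old, those 3 in an old clique of 24 nodes. Of its neighbours, Ccnf was at 24 nodes in old and Rnps1 at 5.

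The bases before these starts are shown because the bin that holds them was a node in young only. The 2 windows below both lie between the Abca3 and Abca17 starts, each gives the 250 bases before a start from RefSeq (GRCm38.p6), 5′ to 3′ on the strand of its gene, and capitals mark exact matches, on either strand, to the CCAAT motif, the GGGCGG motif or the TATAAA motif.
Abca3, plus strand, chr17:24351773-24352022: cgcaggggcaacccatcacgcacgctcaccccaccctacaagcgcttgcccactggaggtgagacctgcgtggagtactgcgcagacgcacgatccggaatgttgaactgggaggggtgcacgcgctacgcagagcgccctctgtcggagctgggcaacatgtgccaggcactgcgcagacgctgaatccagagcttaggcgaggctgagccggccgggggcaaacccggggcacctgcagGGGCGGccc
Abca17, minus strand, chr17:24351060-24351309: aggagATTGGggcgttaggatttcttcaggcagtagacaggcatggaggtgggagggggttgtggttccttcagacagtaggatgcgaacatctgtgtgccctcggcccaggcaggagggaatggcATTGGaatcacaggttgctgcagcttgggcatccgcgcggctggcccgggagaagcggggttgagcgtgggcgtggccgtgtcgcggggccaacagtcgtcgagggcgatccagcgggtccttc
The Abca3 window holds 21 CpG dinucleotides and the Abca17 window 17, where the median of all 21263 windows of protein-coding genes was 10. GGGCGG stands 9 bases before the Abca3 start, and CCAAT is in the Abca17 window 2 times.

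Abcg5 and Abcg8 encode sterol transporters that work as a pair and secrete cholesterol and plant sterols into bile and gut, under the control of the oxysterol receptor LXR. Their main starts, the first ones in the RefSeq promoter table, are 110 bp apart on opposite strands of chromosome 17, in the same bin. Both were listed in a young clique of 3 nodes. In old, Abcg8 was listed in a clique of 7 nodes, together with Lrpprc, and Abcg5 in none. The bin with the main starts was a node in young and not in old, where the nearest node began 1880 bp from the main Abcg8 start. The table gives a further Abcg8 start, upstream of the main one and 6709 bp from that of Abcg5, inside the Abcg5 gene. This one lay in a node at both ages, in old in the clique of 7. The listing of Abcg8 in old therefore goes with its upstream start. Over the gene and 2500 bp around it, Abcg5 had 4 of 7 bins as nodes at both ages, 2 of them the same bins, and all 4 old ones belonged to the clique that listed Abcg8. By gene span the order of the ages turned for both genes, with the largest clique at 3 nodes in young and 7 in old for Abcg5, and 56 and 7 for Abcg8.

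The windows before the main starts of these genes are shown for the same reason, and capitals have the same meaning. The windows overlap by 109 bases, which are the same DNA read on opposite strands.
Abcg5, minus strand, chr17:84683012-84683261: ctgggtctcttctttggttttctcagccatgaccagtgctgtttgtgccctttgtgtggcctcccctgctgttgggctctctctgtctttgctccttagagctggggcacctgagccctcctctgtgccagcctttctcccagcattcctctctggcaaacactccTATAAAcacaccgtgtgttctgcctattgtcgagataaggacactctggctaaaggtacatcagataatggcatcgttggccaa
Abcg8, plus strand, chr17:84682871-84683120: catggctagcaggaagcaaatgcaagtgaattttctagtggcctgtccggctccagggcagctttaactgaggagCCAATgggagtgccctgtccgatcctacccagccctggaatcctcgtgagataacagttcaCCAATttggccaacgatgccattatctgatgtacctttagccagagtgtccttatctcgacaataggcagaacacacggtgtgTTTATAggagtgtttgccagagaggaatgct
The TATAAA match is the same site in both, 84 bases before the Abcg5 start and 31 before the main Abcg8 start, and CCAAT is in the Abcg8 window 2 times. The windows hold 3 and 6 CpG dinucleotides. Of the 20 members with a window, GGGCGG was found in 11, CCAAT in 7, TATAAA in 4, CACGTG in 3 and AGGTCA in 1. These motifs were found in 42.6%, 35.4%, 11.6%, 6.63% and 12.8% of all windows. Abcd3, Abcf2 and Abcg8 have 2 windows each and were counted if either matched, while the shares of all are per window. No member window held TGACTCA (4.06% of all windows), TGANTCA (6.13%, which includes the former) or TGACNNNGC (10.4%). Nor did any hold direct repeats of AGGTCA spaced by 1 base (DR1, in 0.0423% of all windows) or by 4 (DR4, in 0 of the 21263 windows), both of which contain AGGTCA itself. All were searched as exact letters on both strands, which says nothing about binding.

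On chromosome 11 the related genes Abca8b, Abca8a, Abca9, Abca6 and Abca5 lie in a row, and most of the young nodes of this block were absent from old. Abca8b, Abca8a and Abca6, members of the lipid transporter branch, were the 3 genes of a young clique of 35 nodes from 109875001 to 110270000. Only 9 of its nodes were present in old (25.7%, 14.2 to 42.1), all in a clique of 11 nodes that listed Abca8b and no other gene. At Abca8a, 11 of 17 bins were nodes in young and 4 in old, and its start was 10937 bp from the nearest old node. At Abca6 the numbers were 7 and 2 of 17, with no bin in common, and at Abca9, listed at neither age, 4 and 0. Within 200 kb of the Abca8a start, 35 bins were nodes in young and 11 in old. Abca5, at the end of the row, had the opposite order. Its start lay in an old clique of 2 nodes and 17285 bp from the nearest young node, so it is among the 4 members with the larger old value. By gene span it was at 35 nodes in young, in the clique of its neighbours, and 2 in old.

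Abca14, of the same Abca branch but on chromosome 7, was in cliques of 36 and 10 nodes. It had 3 of 26 bins as nodes in young and 1 in old, at the start, so most of its clique lay outside the gene, toward Crym and Anks4b, which were in the same cliques at both ages. Its young clique had 9 of 36 nodes in old (25.0%, 13.8 to 41.1). Among the 540 young cliques of 30 or more nodes that list a protein-coding gene, the share of nodes present in old had a median of 66.7%, and 3 cliques lay at or below the Abca14 clique and 4 at or below that of Abca6, Abca8a and Abca8b. At the other end, 82.1% of the Abcf1 clique was present in old.

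**Figure D2:**
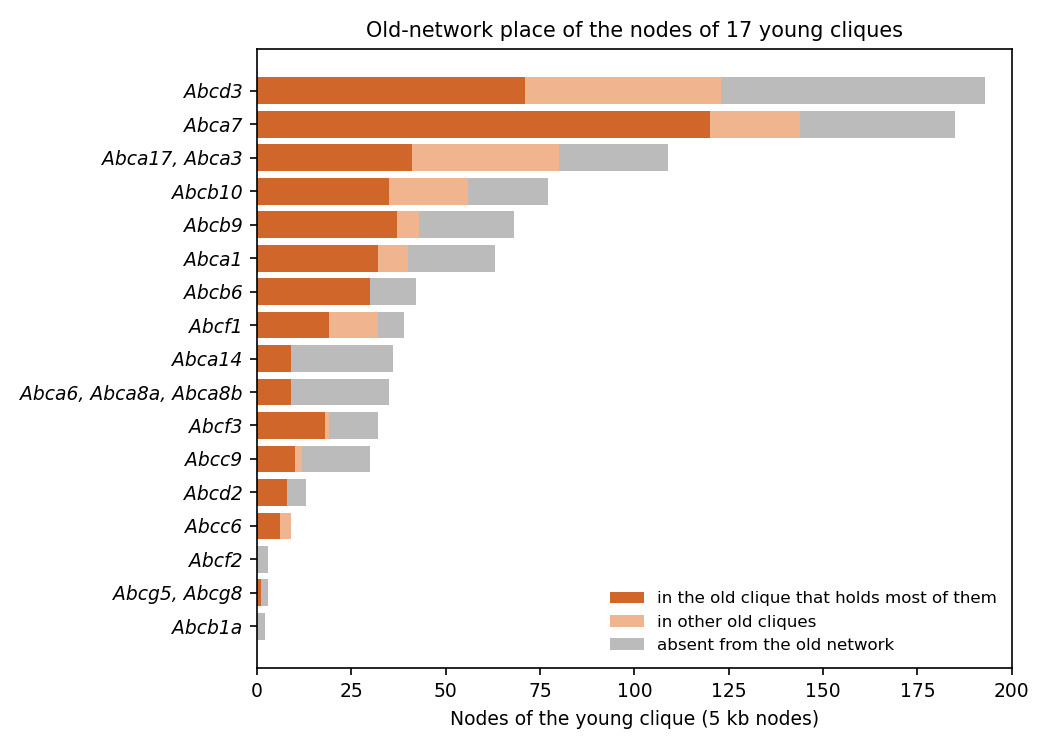
Each bar is a young clique that lists at least 1 member, its length the number of 5 kb nodes, divided into nodes found in the old clique that holds most of them, in other old cliques, or absent from the old network. Abca7 keeps 120 of 185 nodes in 1 old clique, the Abcd3 bar has 70 absent nodes, and the bars of Abca14 and of Abca6, Abca8a and Abca8b are mostly absent from old.

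Over the 17 young cliques that listed a member, 615 of 939 nodes were present in old (65.5%, 62.4 to 68.5). The share was 55.6% of all young nodes and 59.7% of nodes in cliques that list a protein-coding gene. Of these cliques 10 (58.8%) had nodes in 2 or more old cliques, against 35.9% of the 2943 young cliques that list a protein-coding gene. Member cliques were large, and among cliques of 30 or more nodes the shares were 75.0% of 12 and 72.0% of 540. In these larger cliques the median share of nodes present in old was 63.6% for the 12 and 66.7% for the 540. These medians are over cliques, while the 65.5% and its comparisons are over nodes, so they are unlike measures. Whether the higher share over nodes goes with clique size was not tested.

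Abcd3 had the largest clique of the family in young. Its product carries long-chain and branched fatty acids and bile acid precursors into peroxisomes. The gene, on chromosome 3 from 121758904 to 121815302, was in a 193-node clique in young and a 77-node clique in old, and 73 of the 77 old nodes (94.8%, 87.4 to 98.0) were young nodes too. The young clique reached further past the 3′ end of the gene. It began at 121155001 and the old one at 121760001, and on that side 34 and 13 of the young nodes lay in old cliques of 35 and 13 nodes. F3, the tissue factor gene 23852 bp from Abcd3, was in the young clique of 193 and an old clique of 13. Arhgap29, Gclm, whose product helps make glutathione, and Dnttip2 stayed with Abcd3 at both ages. At the gene, 8 of 13 bins were nodes in young and 10 in old, while the unbroken run over the start measured 105 kb (young) and 25 kb (old). Abca4, listed at neither age and known for its role in the retina, lies 228.6 kb away and had 13 bins in the Abcd3 clique of young and 8 in that of old.

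Abcd2, a peroxisomal transporter of very long-chain fatty acids on chromosome 15, was in cliques of 13 and 16 nodes, which shared 8 nodes and listed Kif21a at both ages. Its 4 young and 3 old nodes at the gene had 1 in common. Abcd4 was listed at neither age.

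The 3 Abcb members that act inside the cell were in cliques of 77, 68 and 42 nodes in young, and all were smaller in old by listed size, Abcb6 not so relative to the mean clique. Abcb10, of the inner mitochondrial membrane and linked to haem synthesis, had the largest difference of the members listed at both ages, at 77 and 4 nodes (log2 value -3.96). Of the 77 nodes on chromosome 8, 56 were present in old (72.7%, 61.9 to 81.4), with 35 in a clique of 37 nodes that ended at 123830000, short of the gene, and 19 in a clique of 25. Its start stayed in a node, in a clique of 4 nodes shared with Nup133, and 5 bins at the gene were nodes in young and 6 in old. Its neighbours Taf5l and Urb2 were in the young clique of 77 and in no old clique. Abcb9, a lysosomal peptide transporter, was in cliques of 68 and 42 nodes that shared 37, and 6 and 7 of its 9 bins were nodes. Abcb6, which carries porphyrins, was the most alike at the 2 ages, at 42 and 32 nodes with 30 shared and a Jaccard index of 0.682. All 4 of its bins were nodes at both ages, and the 13 protein-coding genes listed beside it were the same in young and old. Relative to the mean clique of each network, Abcb6 was at 3.98 times the mean in young and 4.74 times in old.

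Among drug and conjugate exporters apart from the bile exporters, 3 of 11 family genes were listed, against 43.8% of all protein-coding genes, in cliques of at most 10 nodes. The 4 bile exporters, left out by the choice of genes, were all listed at both ages, in cliques of 18 to 80 nodes. Abcb1a encodes P-glycoprotein, the exporter of many drugs. A 2-node clique of young listed it, and none of old did. Both nodes lay inside the gene, 92910 bp or more from its start, and no old node lay within 200 kb of the start. Abcc6, expressed mainly in liver and needed for the release of ATP that prevents calcification, was in cliques of 9 and 4 nodes. Its gene was nevertheless the more densely covered in old. All 9 nodes of the young clique were present in old, 11 of the 13 bins at Abcc6 were nodes in old against 9 in young, and they were divided between cliques of 8 and 4 nodes. The old clique of 4 also listed Nomo1. Abcc12, a member of unsettled function on chromosome 8, was in no young clique and in an old clique of 10 nodes with Lonp2, which codes for a peroxisomal protease and was at 16 nodes in young. The old node lay at the outer end of the gene, 86580688, and 13411 bp from the start in the promoter table. Of the 10 old nodes, 8 were in a young clique of 16. By gene span the order turned for Abcc12 as well, with 2 young nodes against 1 old node, in cliques of up to 16 and 10 nodes.

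Abcc9 encodes SUR2, a regulatory subunit of ATP-sensitive potassium channels of heart and smooth muscle. On chromosome 6 a 30-node clique of young listed it with Ldhb and Gys2, the gene of liver glycogen synthase, and no clique of old did. Of the 30 nodes 12 were present in old (95% interval 24.6 to 57.7%), and 35 of the 540 large cliques had as small a share. The run over its start was 50 kb in young, and in old the nearest node was 2727 bp away. At the gene 7 of 25 bins were nodes in young and 2 in old. Ldhb was in no old clique and Gys2 in one of 2 nodes.

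All 3 soluble members had smaller values in old by listed size, and 2 of 3, without Abcf3, relative to the mean clique. Abcf1, which binds initiation factor eIF2, was in cliques of 39 and 16 nodes, and 32 of its 39 young nodes were present in old, divided between cliques of 20 and 16. Abcf3 was in cliques of 32 and 21 nodes that shared 18, with Ap2m1 beside it at both ages and the initiation factor gene Eif2b5 only in young, and relative to the mean clique it was at 3.04 times in young and 3.11 times in old. Abcf2 was in a young clique of 3 nodes, none of them in old, although 2 of the 3 had an old node within 5 kb. Abce1, which splits ribosomes after termination, was listed at neither age and its start was 71740 bp from the nearest node at both.

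**Figure D3:**
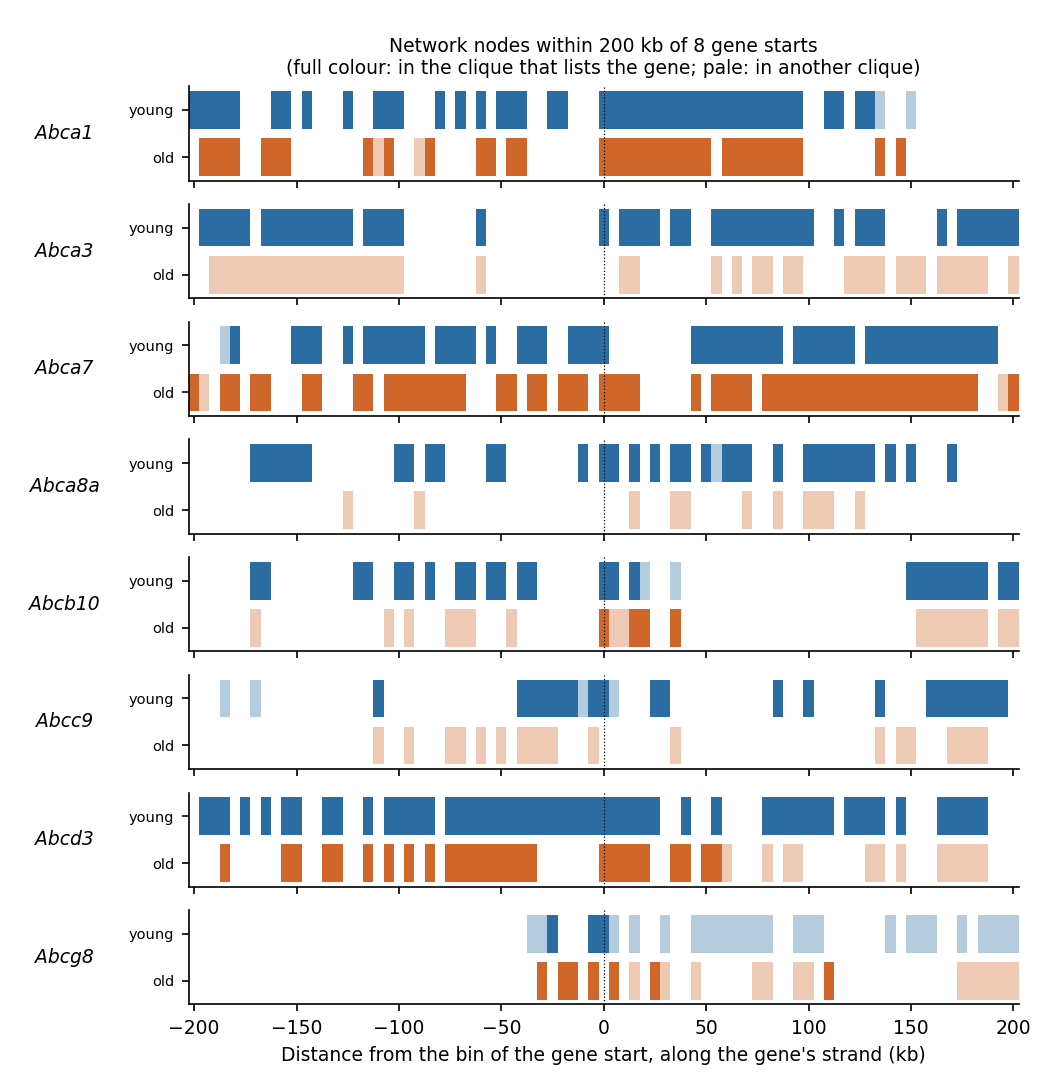
Bins of 5 kb that are nodes are drawn against the distance in kb from the bin of the gene start, in the direction of the gene, for 8 members, with young above in blue and old below in orange, in full colour where the node is in the clique that lists the gene and pale where it is in another. The start bins of Abca3, Abca8a and Abcc9 are filled in young and empty in old, as is the bin of the main Abcg8 start. The run over the Abca1 start is 100 kb long in young and 55 kb in old.

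Counts of nodes close to the gene do not depend on how nodes are divided into cliques, and here the members differed from each other. In the gene and 2500 bp around it, 14 of 23 members had fewer nodes in old, 7 had more and 2 had as many. Of all protein-coding genes 55.7% had fewer and 16.1% more. The 7 with more were Abca5, Abca7, Abcb9, Abcb10, Abcc6, Abcd3 and Abcf1, and for 6 of them, all but Abca5, the clique was the smaller in old. Over all members 40.3% of these bins were nodes in young and 29.5% in old, and over all genes 42.4% and 31.9%. Within 200 kb of the start, 18 of 20 members had fewer nodes in old, against 80.3% of all genes, and Abca7 and Abcf2 had more, against 14.9%. The medians were 35 and 21.5 of 81 bins for members and 27 and 20 for all genes.

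**Figure D4:**
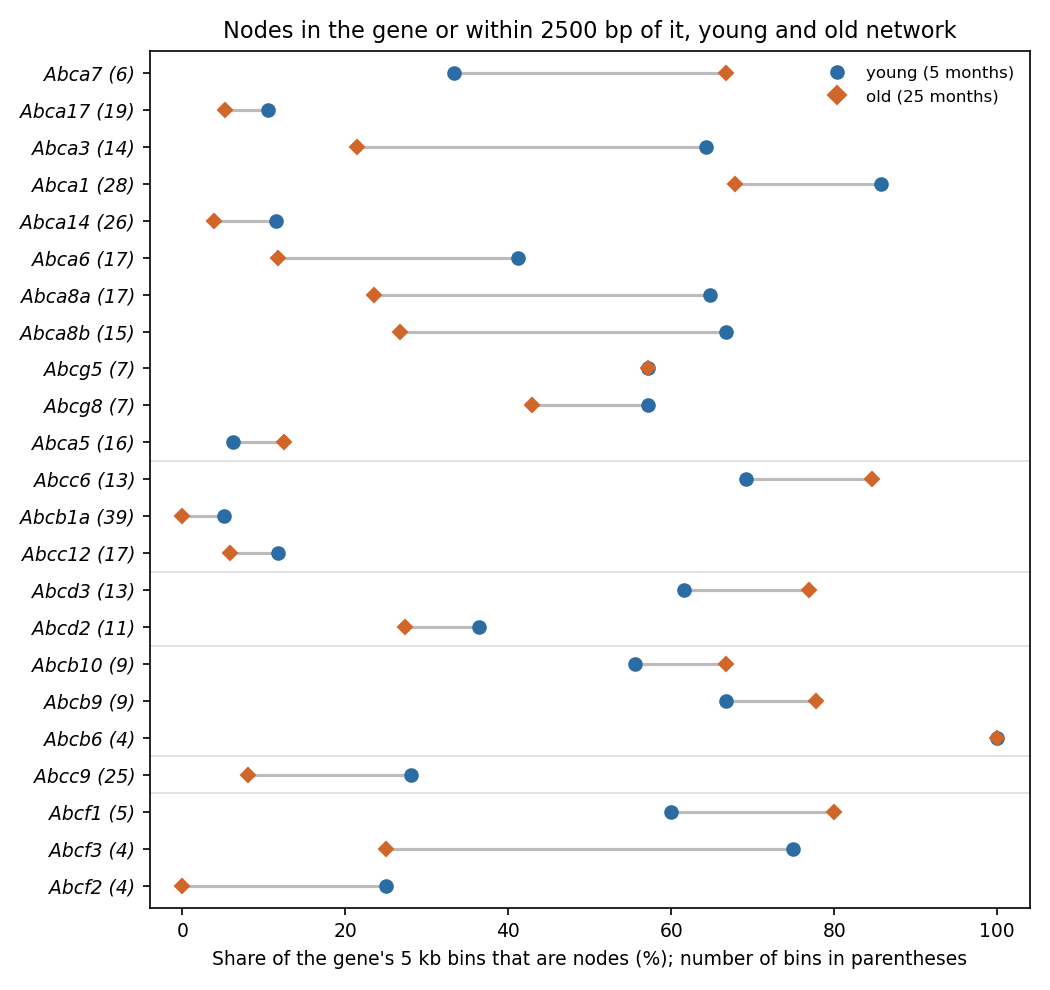
For each member, in the order of the plot of clique sizes, the share of the 5 kb bins in the gene or within 2500 bp of it that are nodes is given in percent for young (blue circle) and old (orange diamond), with the number of bins in parentheses. Abca7, Abcc6, Abcd3 and Abcf1 are to the right in old, and Abca3, Abca8a, Abca8b and Abcf3 far to the left.

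The other 23 of the 46 family genes were listed at neither age. A young node lay at 10 of them (43.5%) and an old one at 5 (21.7%), where the shares of the other 12269 unlisted protein-coding genes were 22.1% and 18.2%. Gene length was not matched here either. The gene of the drug exporter Abcg2 had 5 young nodes and 2 old ones, with an inner start in a node at both ages and the other starts 38329 bp or more from any. Abca2 had 1 young and 4 old nodes, Abcb8 1 and 3, Abcc4 2 and 1, and the cholesterol exporter gene Abcg1 1 and 0. The other 13, Abcc1 and Abcc5 among them, had none at either age.

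Partner genes of the members were described by the same counts, in 5 lists of which some share Ppara or Rxra. For comparison, 78.5% of all protein-coding genes were smaller in old, 17.9% larger and 3.61% equal. Of 15 listed genes of sterol efflux and its control, 12 were smaller and 3 larger in old, with medians of 50 and 38 nodes. Lcat, which esterifies cholesterol on lipoproteins, was in 58 nodes in young and in no old clique, Nr1h2, which encodes LXR-beta, in 10 and 74, and Srebf2, the master regulator of cholesterol synthesis, in 18 and 2. For 14 genes of peroxisomal import and oxidation the counts were 13 and 1 and the medians 41 and 31.5, with Hsd17b4 at 9 and 2 nodes, Pex19 at 33 and 13 and Pex5 at 119 and 60. Of 10 regulators of drug exporters 9 were smaller and 1 larger, with Nr1i2, the gene of the drug sensor PXR, at 57 and 21 nodes, Keap1 at 16 and 46 and Hnf4a at 65 and none. Of 15 genes of iron-sulfur and haem synthesis, 12 were smaller, 2 larger and 1 equal, with Ppox at 64 and none and Lyrm4 at 11 and none. Of 12 translation partners 8 were smaller, 3 larger and 1 equal, with Eif1 at 40 and none, Eif3a at 38 and none and Eif3c at 63 and 2. Lcat and the genes given as none were listed in no old clique, which does not mean that the gene had no old node. By gene span the largest old clique had 11 nodes for Lcat, 25 for Hnf4a, 2 for Lyrm4 and 19 for Eif3a. Ppox and Eif1 had no old node there. The median log2 values were -0.34, -0.40, -0.28, -0.77 and -0.81 for the 5 lists in turn, beside -1.31 for the members and -0.93 for all genes. Relative to the mean clique of each network they were 0.20, 0.18, 0.30, -0.11 and -0.13, beside -0.36 and -0.22, so the first 3 lists turned to the larger side and the members did not. Under that scaling the counts smaller and larger in old were 7 and 8, 4 and 10, 2 and 8, 10 and 5, and 7 and 5. Of all genes 58.6% were then smaller and 41.4% larger.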

How the data were processed

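The submitters' processing notes name Bowtie2 and HiC-Pro, without versions, and the builds mm10 and GRCm38. Not given in the sources used here are the calling of loops and cliques, the promoter window and the combining of libraries. The depth of each network is unknown, and fewer contacts could give fewer nodes. Per the file headers, the authors deposited for each age the positions of the nodes and the cliques with their number of nodes and gene names.

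Names were split on semicolons and matched to RefSeq genes of GRCm38.p6 by symbol or unique synonym. The size of the clique that lists a gene, 0 if none, was compared as log2((old + 1)/(young + 1)). Nodes of both ages were matched by bin. Gene spans were extended by 2500 bp. Starts and promoters were matched for 20 of 23 members, and for Abca6, Abcc6 and Abcd2 they were not used here. Intervals are 95% Wilson intervals, which cover counting error only and treat nodes as independent, which neighbouring nodes are not. Coordinates are 1-based. All members are named. Described in full are the 4 with the largest young clique and those with the 4 lowest and 4 highest log2 values. The same holds for genes listed at 1 age only in a clique of 20 or more nodes. Up to 3 nearest neighbours are given. Abca1 was described in full as well, outside this rule. Each partner list is shown by its 3 genes of largest absolute log2 value. Some items are not reported here. The members and lists were chosen with earlier results of these data known. The comparison of node counts at genes and within 200 kb was added after the data were seen. Gene lookups were tested on simulated data. Python 3.11.15, pandas 2.3.3, numpy 2.4.6 and scipy 1.17.1 were used.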

Additional observations from a re-analysis of the deposited data

How the results depend on the processing

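The median log2 value of the members was -1.31 and stayed below 0 under every alternative run. It was -0.36 for sizes relative to the network's mean, -0.68 with a pseudocount of 5, -1.23 without cliques of 2 nodes and with 1 member per pair of cliques, -1.22 with the bile exporters added, -0.71 among members listed at both ages, -0.32 for nodes in the gene span and -0.44 for nodes within 200 kb. As a rank within the age, the share of nodes in cliques of that size or smaller differed by -8.03 percentage points. The number of members smaller in old was 19. It was 16 relative to the mean, 15 by rank and 14 for nodes in the gene span. Without cliques of 2 nodes it was 18, and by the largest clique in the gene span 21. Of the 20 members with a start it was 16 by the clique at the gene start and 18 within 200 kb. It was 11 of 13 among members listed at both ages, fewer because 10 members were left out. The number larger in old, 4, was 7 relative to the mean, 8 by rank and 7 for nodes in the gene span. It was 2 by the largest clique in the gene span, by the clique at the gene start, within 200 kb and among members listed at both ages. The share of young nodes present in old, 65.5%, was 85.6% when nodes within 5 kb counted as matched. The causes of these differences were not tested. Leaving out a replicate was not run, since each network stands for all libraries of its age. No paired analysis was possible because the files name no replicate.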
